A study of Homo sapiens with 32 samples.

Results

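RNA-Seq was used to compare SK-N-BE(2) cells, a MYCN-amplified human neuroblastoma line, after 24 h with 20 µM cannabidiol (CBD) or with vehicle. Vehicle was ethanol at 0.1%. The comparison holds 4 CBD cultures and 4 vehicle cultures, 8 of the 32 samples of a time course that also has groups of 4 at 3, 6 and 12 h, and the 12 h groups are used below for contrast. The cells are 1 established line grown in dishes, the RNA was polyadenylated RNA of whole cultures, and the question of the comparison was which transcripts differed from time-matched vehicle at the last time point. All 22610 entries of the authors' table were read, values are FPKM (fragments scaled for transcript length and for library size), and the 12621 entries with a mean of at least 1 FPKM over the 32 samples were tested. In cultures, fewer cells of one state and less RNA per cell cannot be told apart.

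CBD is a plant cannabinoid that does not act through the classical cannabinoid receptors as THC does. Several of the transcript groups below belong to well-known feedback circuits. When the sterol content of the endoplasmic reticulum drops, SREBP transcription factors are released to the nucleus and switch on sterol and fatty acid synthesis. ATF4 is translated when the initiation factor eIF2α is phosphorylated and switches on amino acid synthesis and transport, NRF2 is freed from KEAP1 by electrophiles and oxidants, and metallothioneins are switched on by the zinc sensor MTF1. HIF factors are stabilised when cells lack oxygen and switch on glycolysis, glucose uptake and lactate export. Adrenergic neuroblastoma cells are defined by MYCN together with factors such as HAND2 and ISL1, and make catecholamines.

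The cell type was checked against marker genes. All 12 neuroblastoma markers passed the filter, and their summed level was 4847 to 4906 FPKM in vehicle and 5011 to 5219 FPKM in CBD. MYCN was the 1 of them called higher and 6 were called lower. All 4 endothelial and all 5 glial markers stayed under 1 FPKM in all 8 samples, as did 4 of 5 leukocyte and 4 of 5 epithelial markers. Fibroblast markers summed to 119 to 130 FPKM in vehicle and 102 to 108 FPKM in CBD, with 2 of 7 under 1 FPKM, 1 called higher and 2 called lower. Their part in the results was not tested. Relative depth of the 8 samples, estimated from the smallest steps of the values, lay between 0.937 and 1.20 of the median sample and the ranges of CBD and vehicle overlapped. Pearson correlations of log2(FPKM + 1) over protein-coding genes were 0.9982 to 0.9992 within a group and 0.9903 to 0.9922 between groups. The first principal component held 80.1% of the variance and separated the groups.

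At an adjusted p under 0.01 (limma with Benjamini-Hochberg adjustment), 5314 of 12621 entries were called, which is 42.1%. The 4 CBD values lay wholly above or wholly below the 4 vehicle values for 51.0% of all entries tested. Of these entries, 20.8% were called higher and 21.3% called lower, and these shares are the background for every gene list below. Protein-coding genes made up most of the response, with 4992 of 11146 called, 2432 of them higher and 2560 lower. The changes were broad and small. The median absolute log2 fold change of the called protein-coding genes was 0.20, and 49.3% of them changed by less than 0.2. At least 0.5 was reached by 177 genes upward and 93 downward, and at least 1 by 23 upward and 13 downward. Over all entries, 43 or 0.341% were called and moved by 1 or more on the log2 scale. With a mean FPKM of at least 5 as the filter, or 0.1 or 5 added before the logarithm, that count was 26, 70 or 21. Fold changes are on the scale of log2(FPKM + 1) and understate changes at low FPKM.

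Direction varied with level. Among protein-coding genes with a mean of 1 to 5 FPKM, 742 were called higher and 396 lower. Between 5 and 20 FPKM there were 1045 higher and 999 lower. Between 20 and 100 FPKM the balance was the other way, with 541 higher and 968 lower, and at 100 FPKM or more 104 were higher and 197 lower. The median standard error was 0.045 in the lowest of these bands and 0.034 in the highest. The total split also moved with the scaling, from 49.4% of called entries higher to 40.6% when samples were scaled by median ratios over all entries.

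**Figure D1:**
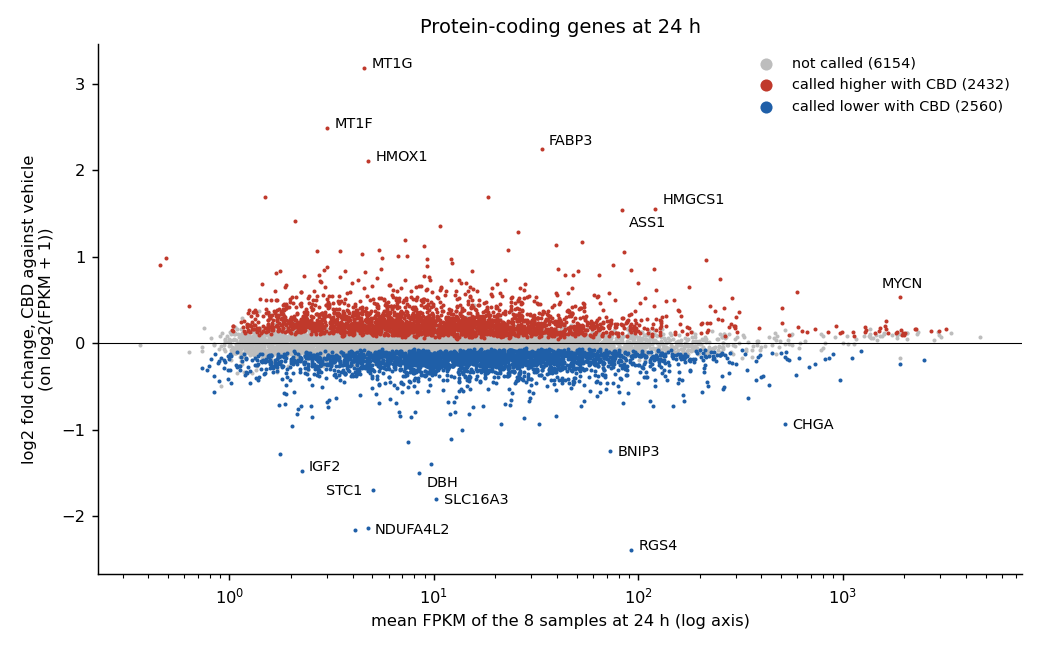
Log2 fold change of CBD against vehicle at 24 h (vertical axis, on log2(FPKM + 1)) against the mean FPKM of the 8 samples (horizontal log axis), with 1 point per protein-coding gene tested. Red points are the 2432 genes called higher and blue points the 2560 called lower, most of them within 0.5 of 0, and the named genes lie farthest out or at high FPKM.

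The largest rises among protein-coding genes were of metallothioneins, the small cysteine-rich proteins that bind zinc and copper. MT1G (chr16:56700642-56701977, GRCh37) was at 0.110, 0.0605, 0.0951 and 0.112 FPKM in the vehicle cultures and at 7.70, 9.49, 11.0 and 7.96 FPKM in the CBD cultures. Its log2 fold change was 3.18 ± 0.21 (SE). MT1G, MT1F and MT1E passed the filter only through the CBD samples in which they were high. They had to be higher in some CBD samples, though not by need in those at 24 h, and their calls are not counted as a result. MT2A was between 6.52 and 10.3 FPKM in vehicle and between 22.6 and 34.6 FPKM in CBD, a log2 change of 1.69 ± 0.18. MT1F and MT1E changed by 2.49 and 1.70. Vehicle levels of MT1G, MT1F and MT1E lay under 0.4 FPKM, where the value added before the logarithm sets the size of the change. MT1G changed by 5.55 with 0.1 added and by 1.46 with 5 added, and MT1E by 3.71 and 0.60, the last of which was not called. Metallothionein genes are near-identical copies and short reads may have been split between them.

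FABP3 (chr1:31838100-31849697), a cytosolic carrier of long-chain fatty acids, had the largest rise of any protein-coding gene with more than 10 FPKM in vehicle. The vehicle cultures had 11.2, 10.9, 10.8 and 11.1 FPKM and the CBD cultures 48.5, 62.6, 53.9 and 60.2 FPKM. The ratio of the means was 5.12 and the log2 fold change 2.25 ± 0.06 (limma, adjusted p = 2.98e-20). HMOX1, the heme oxygenase that degrades heme to biliverdin, iron and carbon monoxide, had 1.07, 1.21, 1.27 and 1.09 FPKM in vehicle and 8.52, 8.41, 9.32 and 7.21 FPKM in CBD. ASS1, which joins citrulline and aspartate on the way to arginine, had 43.2, 40.9, 40.5 and 43.2 FPKM in vehicle and 126, 121, 136 and 112 FPKM in CBD, a log2 change of 1.54 ± 0.05. These genes were picked among called genes whose groups did not overlap, so the separation of the groups follows from the choice. The rest of the 15 largest rises were HMGCS1, SLC7A11, ACSS2, DDIT3, RET, INSIG1, MVD and RAB3IL1, with log2 changes between 1.12 and 1.55. RET, the receptor tyrosine kinase for ligands of the GDNF family, went from 3.97 ± 0.0889 FPKM (SD, n = 4) to 10.4 ± 0.490 FPKM.

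The largest fall on the log2(FPKM + 1) scale was of RGS4 (chr1:163038565-163046592), a GTPase activator that shortens signalling by Gi and Gq proteins. It was at 168, 148, 168 and 139 FPKM in vehicle and at 30.0, 27.0, 28.9 and 29.2 FPKM in CBD. The log2 fold change was -2.39 ± 0.08 (adjusted p = 1.76e-18, limma). NDUFA4L2, a mitochondrial protein that HIF factors induce, had 9.11, 5.29, 11.3 and 7.94 FPKM in vehicle and 0.908, 1.07, 1.26 and 1.08 FPKM in CBD, a log2 change of -2.14 ± 0.16. With 0.1 instead of 1 added the order turned, with NDUFA4L2 at -2.81, whereas RGS4 was not below -2.44 in any alternative. The vehicle cultures were scattered in NDUFA4L2, and the lowest of them was far above every CBD culture. NDUFA4L2 was under 1 FPKM in both groups at 3 h. Its passing of the filter thus rested partly on the vehicle cultures in which it was high. SLC16A3, the lactate exporter MCT4, was at 18.4, 15.6, 17.9 and 14.2 FPKM in vehicle and 4.32, 2.88, 4.76 and 4.32 FPKM in CBD. STC1, a secreted glycoprotein hormone, was at 7.36 to 8.86 FPKM in vehicle and 1.67 to 2.04 FPKM in CBD.

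DBH, which turns dopamine into noradrenaline, fell by 1.50 on the log2 scale. Its vehicle values were 13.8, 12.2, 13.9 and 12.1 FPKM and its CBD values 4.23, 3.74, 4.07 and 3.78 FPKM. IGF2, the insulin-like growth factor expressed from the paternal allele, had 4.32, 3.48, 4.17 and 3.18 FPKM in vehicle and 0.643, 0.686, 0.701 and 0.847 FPKM in CBD. These CBD values lay under 1 FPKM, so IGF2 passed the filter partly through vehicle cultures. ABCA12, a lipid transporter known from skin, was at 13.8 to 14.98 FPKM in vehicle and 4.83 to 4.95 FPKM in CBD. The others of the 15 largest falls among called genes without overlap were TM4SF4, BNIP3, NDRG1, SLITRK6, LOXL2, NEUROG2, SLC2A1 and FAM162A, between -1.28 and -0.94. Over the alternative settings TM4SF4 ran from -2.09 to -0.495 and NEUROG2 from -1.42 to -0.401, so the size of these falls depends on the processing. SLITRK6, a membrane protein of growing neurites, went from 16.9 ± 0.874 FPKM to 7.32 ± 0.195 FPKM.

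**Figure D2:**
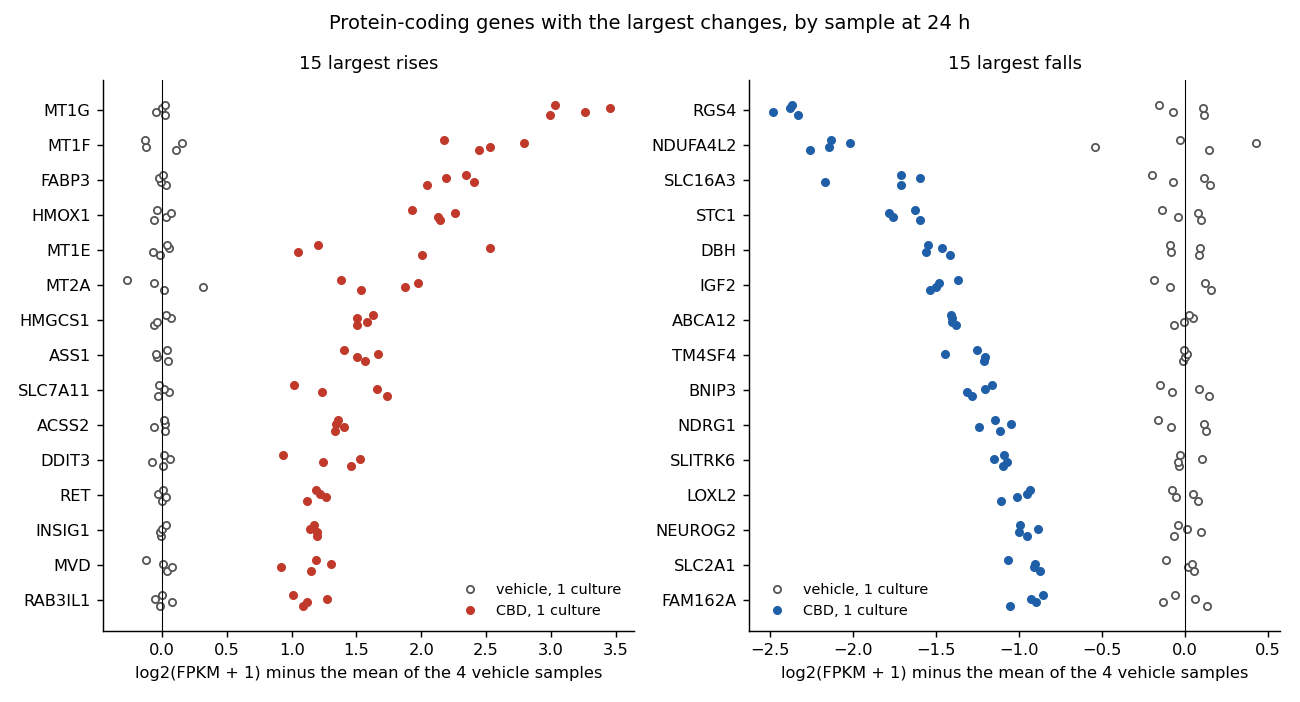
Each point is 1 culture at 24 h, placed by its log2(FPKM + 1) minus the mean of the 4 vehicle cultures (horizontal axis), for the 15 protein-coding genes with the largest rises and the 15 with the largest falls. Open points are vehicle and filled points CBD, and MT1E is the most scattered of the rises. The genes were chosen among called genes whose groups did not overlap, so the separation of the points follows from the choice. MT1G, MT1F and MT1E passed the filter only through the CBD samples, so they had to be higher in some of these.

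In absolute FPKM the picture was of other genes. MYCN, the amplified oncogene of the line, had 1502, 1572, 1544 and 1597 FPKM in vehicle and 2208, 2452, 2187 and 2182 FPKM in CBD. The rise of the mean by 703 FPKM was the largest of any called protein-coding gene without overlap, at a log2 change of 0.54 ± 0.04. RPL37A, RPS2, RPL12 and RPS7, proteins of the cytosolic ribosome, followed with log2 changes of 0.16, 0.15, 0.26 and 0.15. Under quantile normalization RPL12 alone of these was still called, at 0.09. The largest falls in mean FPKM were those of a glycolytic enzyme and of chromogranin A, a granule protein. GAPDH fell by 329.9 FPKM and CHGA fell by 323.8 FPKM. GAPDH was at 2617 to 2699 FPKM in vehicle and 2223 to 2398 FPKM in CBD, so this transcript, often used for normalisation, differed by -0.19 on the log2 scale, and by -0.315 under quantile normalization. TMSB10, ENO1 and STMN1 completed the list, at -0.24, -0.42 and -0.37, and quantile normalization put TMSB10 at -0.44.

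Gene lists written from general knowledge were read against the background shares of 20.8% higher and 21.3% lower. These shares are not matched for level. Of protein-coding genes, 396 of 2814 were called lower at 1 to 5 FPKM and 968 of 3033 at 20 to 100 FPKM. A list of abundant genes can thus exceed 21.3% lower through its level. Lists for fatty acid synthesis, sterol synthesis, NRF2 targets, the ATF4 pathway and ERK feedback lay mostly on the higher side. Lists for DNA replication, glycolysis and hypoxia lay mostly on the lower side. Lysosomal, autophagy, BCL2 family and complex II to IV genes were mixed. The median log2 change of all entries tested was -0.003.

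**Figure D3:**
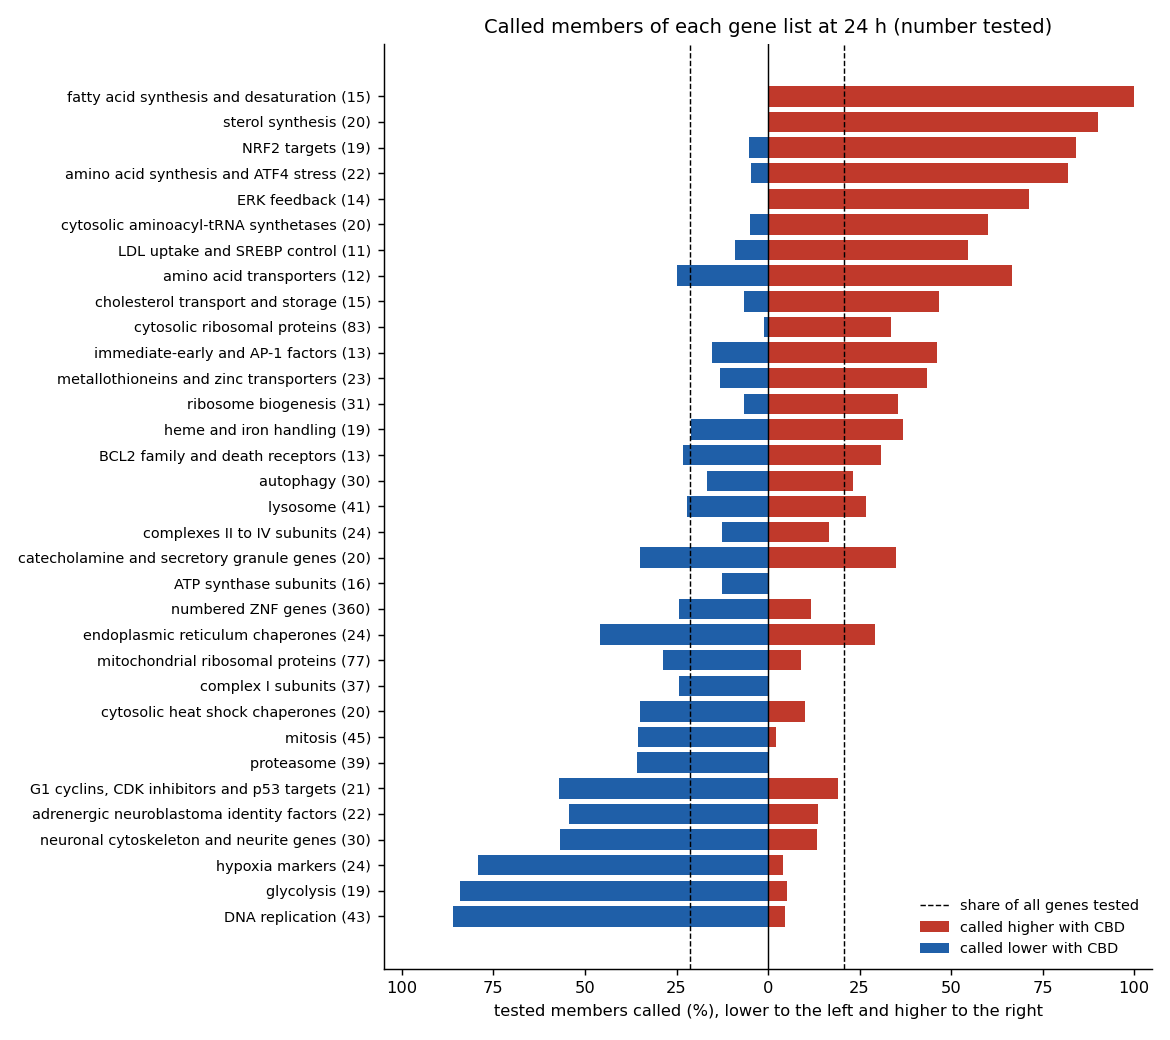
Share of the tested members of each gene list called higher (red, right) or lower (blue, left) with CBD at 24 h, in percent, with the number tested in parentheses. The dashed lines mark the shares of all entries tested, 20.8% and 21.3%, and the lists are sorted from those mostly higher at the top to those mostly lower at the bottom. The red bar of metallothioneins and zinc transporters includes MT1E, MT1F, MT1G, MT1H and MT1M, which passed the filter only through the CBD samples.

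In sterol synthesis, 18 of 20 enzymes were called higher and none lower, with a median log2 change of 0.69. HMGCS1, which makes HMG-CoA from acetyl-CoA units, had the largest rise of the list, from 58.5, 59.3, 64.1 and 62.2 FPKM in vehicle to 175, 184, 175 and 190 FPKM in CBD. MVD, the last step of the mevalonate arm, changed by 1.14, MSMO1, a demethylase of the late pathway, by 1.06, and FDFT1, the squalene synthase, by 0.97. PMVK was -0.16 and TM7SF2 0.20, neither called at the threshold of 0.01 (limma, adjusted p = 0.0169 and 0.0193). In the list for LDL uptake and SREBP control 6 of 11 were higher and 1 was lower. INSIG1, the SREBP target that holds SCAP in the endoplasmic reticulum, had 31.8, 31.6, 32.1 and 32.7 FPKM in vehicle and 74.5, 74.5, 71.8 and 73.3 FPKM in CBD. SREBF2, which encodes the sterol-responsive SREBP, changed by 0.46. INSIG2 was the member called lower, at -0.32.

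Of 15 genes of cholesterol transport and storage 7 were higher and 1 lower, with a median of 0.09. NPC2, a sterol carrier of the lysosome, changed by 0.55, the transporter GRAMD1A by 0.44, the lysosomal lipase LIPA by 0.36 and NPC1 by 0.29. ABCA1, the cholesterol exporter, did not reach the filter and was at 1.19 to 1.30 FPKM in vehicle and 1.44 to 1.56 FPKM in CBD. All 15 fatty acid genes were called higher, with a median of 0.38 and a range of 0.14 to 1.36. ACSS2, which makes acetyl-CoA from acetate, led with 5.65, 5.27, 5.64 and 5.62 FPKM in vehicle against 15.5, 16.3, 15.6 and 15.7 FPKM in CBD. The desaturase SCD went from 229 to 240 FPKM in vehicle to 330 to 347 FPKM in CBD. FASN, the fatty acid synthase, changed by 0.38 and the acetyl-CoA carboxylase ACACA by 0.27.

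The ATF4 list had 18 of 22 members higher, 1 lower and a median of 0.32. DDIT3, the pro-apoptotic factor CHOP, had 14.5, 13.7, 15.1 and 14.7 FPKM in vehicle and 41.5, 35.6, 43.5 and 28.5 FPKM in CBD. The spread among CBD cultures was wide in this gene, and the lowest of them was above every vehicle culture. CHAC1, which degrades glutathione, ran from 5.54 to 6.65 FPKM in vehicle and had 13.6, 10.6, 13.5 and 8.89 FPKM in CBD. CBD cultures 1 and 3 were the higher ones in both DDIT3 and CHAC1. ASNS, the asparagine synthetase, changed by 0.86 ± 0.05, the pseudokinase TRIB3 by 0.90 ± 0.12 and the factor CEBPB by 0.93 ± 0.07. ATF4 itself changed by 0.41 ± 0.04. VLDLR was the member called lower, at -0.34.

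Amino acid transporters were split, with 8 of 12 higher and 3 lower. SLC7A11 and SLC3A2, the light and heavy chains of the cystine importer, changed by 1.41 and 0.79, and the glutamine carrier SLC1A5 by 0.79. SLC7A11 was at 0.627 to 0.725 FPKM in vehicle and 2.38 to 4.56 FPKM in CBD. Its vehicle values lay under 1 FPKM, so it passed the filter partly through CBD cultures in which it was high. The 3 called lower differed by at most 0.15, and none of them was called when the 24 h samples were fitted alone. Of the 20 cytosolic aminoacyl-tRNA synthetases, which charge tRNAs, 12 were higher and 1 lower. SARS, AARS, YARS and CARS led with 0.65, 0.52, 0.46 and 0.46, and HARS was -0.16.

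The upstream promoter sequences of these lists were searched for TGATGNAA, the C/EBP-ATF response element through which ATF4 binds, on both strands of the 250 bases before each RefSeq transcription start (GRCh38.p14). Among members called higher, 7 of the 31 genes with a sequence held a match (22.6%), against none of 5 called lower and none of 9 not called. Of all 9232 tested protein-coding genes with a sequence, 2.13% held one. The match is shown in capitals for ASNS, CHAC1, SLC1A5 and ATF3, the members of the list and of the transporters with a match, each as 60 bases read along the gene's strand.
ASNS (chr7:97872443-97872502, minus strand): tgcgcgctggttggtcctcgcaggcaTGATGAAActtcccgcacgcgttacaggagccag
CHAC1 (chr15:40953236-40953295, plus strand): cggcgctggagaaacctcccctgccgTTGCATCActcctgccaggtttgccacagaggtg
SLC1A5 (chr19:46784878-46784937, minus strand): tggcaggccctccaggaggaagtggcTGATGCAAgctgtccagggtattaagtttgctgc
ATF3 (chr1:212565190-212565249, plus strand): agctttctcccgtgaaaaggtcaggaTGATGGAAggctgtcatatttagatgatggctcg
A match describes letters only. The CHAC1 match is on the opposite strand and reads as the reverse complement.

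Of 19 NRF2 targets, 16 were higher and 1 lower, with a median of 0.24. NQO1, a quinone reductase, had 3.74, 4.13, 4.32 and 4.20 FPKM in vehicle and 9.46, 9.01, 9.79 and 8.83 FPKM in CBD. The glutathione synthesis genes GCLM and GCLC changed by 0.53 and 0.28, and PRDX1, a peroxiredoxin, was the member called lower at -0.13, a call lost under quantile normalization (limma, adjusted p = 0.125). FTH1, the heavy chain of the iron store ferritin, rose by 0.59, from 472 to 484 FPKM in vehicle to 686 to 765 FPKM in CBD. In heme and iron handling 7 of 19 were higher and 4 lower. ALAS1, the rate-limiting enzyme of heme synthesis that heme represses, had 10.2, 9.96, 10.4 and 10.2 FPKM in vehicle and 4.997, 5.34, 5.19 and 5.31 FPKM in CBD. The transferrin receptor TFRC was lower by -0.31 ± 0.03. Ferritin and the transferrin receptor thus lay on opposite sides, as did HMOX1 and ALAS1.

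Of the metallothioneins that passed the filter, MT1E, MT1F, MT1G, MT1H and MT1M did so only through the CBD samples in which they were high. They had to be higher in some CBD samples, so their calls are not counted as a result. MT2A and MT1X were above 1 FPKM in vehicle as well. Of the other 16 members of the list tested, the zinc transporters and MTF1, 3 were higher and 3 lower. MT1H and MT1M were listed at 0 FPKM in every vehicle culture, so no fold is given for them. MT1X, at 4.21 to 5.57 FPKM in vehicle and 5.85 to 9.26 FPKM in CBD, had the smallest change of the family, 0.62 ± 0.18. That call was lost with 5 instead of 1 added before the logarithm (limma, adjusted p = 0.049) and without any 1 of CBD cultures 1, 2 and 3 or vehicle cultures 1, 3 and 4. SLC30A1, the zinc exporter of the plasma membrane, changed by 0.27 ± 0.04. SLC39A10, a zinc importer, was at 0.03 ± 0.04 and not called. The core of the metal response element, TGCNCNC, is short and was present in 64.6% of all tested protein-coding genes with a promoter sequence. The MT2A window held 7 matches in 250 bases, and the 60 bases with 3 of them are shown because MT2A was the most abundant metallothionein.
MT2A (chr16:56608416-56608475, plus strand): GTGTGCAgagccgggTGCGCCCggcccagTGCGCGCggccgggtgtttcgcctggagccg

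Hypoxia markers fell as a group, with 19 of 24 called lower, 1 higher and a median of -0.47. BNIP3, a mitophagy receptor, was at 113, 97.2, 109 and 92.3 FPKM in vehicle and 41.4, 40.6, 43.9 and 45.2 FPKM in CBD. SLC2A1, the glucose transporter GLUT1, had 29.3, 28.5, 29.0 and 25.9 FPKM in vehicle and 14.9, 14.5, 14.6 and 12.9 FPKM in CBD. PDK1, the kinase that turns off pyruvate dehydrogenase, changed by -0.82 ± 0.06 and the vascular growth factor VEGFA by -0.47 ± 0.07. ADM, a vasodilator peptide, changed by -0.86, PFKFB4, which makes an activator of glycolysis, by -0.70, and the prolyl hydroxylase EGLN3 by -0.52. The member called higher was ERO1A, an oxidase of the endoplasmic reticulum, at 0.19. DDIT4, a brake on mTORC1 that both HIF and ATF4 induce, was -0.11 and not called. CA9, a widely used marker of hypoxia, lay under the filter with 0.670 to 1.05 FPKM in vehicle and 0.289 to 0.509 FPKM in CBD.

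Glycolysis moved with it. Of 19 genes, 16 were lower and 1 higher, with a median of -0.37. HK2, the inducible hexokinase, had 17.7, 15.8, 16.9 and 15.1 FPKM in vehicle and 9.63, 7.92, 9.56 and 8.97 FPKM in CBD. The most abundant steps changed too. TPI1 went from 405 to 430 FPKM in vehicle to 259 to 280 FPKM in CBD, PGAM1 changed by -0.72, PGK1 by -0.56, PKM by -0.48 and LDHA by -0.41. PFKM, the muscle type phosphofructokinase, was the member called higher at 0.13 and HK1, the constitutive hexokinase, was at -0.03 and not called.

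The core of the hypoxia response element, ACGTG, was searched in the same upstream windows. Of the 29 genes of the hypoxia and glycolysis lists that were called lower and had a sequence, 18 held at least 1 match (62.1%), against 30.0% of all tested protein-coding genes with a sequence. Both members called higher held one as well, as did 3 of 6 not called. Stretches of 60 bases are shown for 6 genes called lower, with every match on either strand in capitals, so that the palindrome CACGTG counts as 2 matches that overlap.
PDK1 (chr2:172556030-172556089, plus strand): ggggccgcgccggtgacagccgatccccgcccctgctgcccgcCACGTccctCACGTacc
P4HA1 (chr10:73096921-73096980, minus strand): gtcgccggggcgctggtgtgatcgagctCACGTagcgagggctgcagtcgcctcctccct
EGLN1 (chr1:231422288-231422347, minus strand): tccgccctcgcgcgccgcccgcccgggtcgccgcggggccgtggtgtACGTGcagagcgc
HK2 (chr2:74834971-74835030, plus strand): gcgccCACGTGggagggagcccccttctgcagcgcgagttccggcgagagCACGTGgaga
BNIP3 (chr10:131982025-131982084, minus strand): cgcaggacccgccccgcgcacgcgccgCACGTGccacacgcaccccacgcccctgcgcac
LDHA (chr11:18394435-18394494, plus strand): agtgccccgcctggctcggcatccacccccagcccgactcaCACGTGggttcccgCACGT
EGLN1 and P4HA1, both prolyl hydroxylases, changed by -0.38 and -0.68. The other genes shown are those whose values are given above, and the LDHA window held 5 matches.

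The levels at earlier times set these falls beside the course of the vehicle cultures. In vehicle, BNIP3 was at 38.4 ± 1.85, 49.0 ± 4.12, 64.5 ± 3.77 and 103 ± 9.80 FPKM at 3, 6, 12 and 24 h (SD, n = 4). With CBD it was at 37.7 ± 2.32, 36.5 ± 1.75, 42.3 ± 0.952 and 42.8 ± 2.17 FPKM at the same times. NDUFA4L2 rose from 0.823 ± 0.190 to 8.41 ± 2.50 FPKM in vehicle between 3 and 24 h, and stood at 0.747 ± 0.133 and 1.08 ± 0.143 FPKM with CBD. SLC16A3 went from 1.43 ± 0.155 to 16.5 ± 1.97 FPKM in vehicle and from 1.53 ± 0.150 to 4.07 ± 0.823 FPKM with CBD. Of the 24 hypoxia markers, 19 were called higher in vehicle at 24 h than in vehicle at 3 h, with a median of 0.66, and 13 were called higher in CBD at 24 h than in CBD at 3 h, with a median of 0.25. For glycolysis 15 of 19 were called higher over time in vehicle, and 7 higher and 9 lower in CBD.

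These comparisons over time share the 24 h samples with the main comparison, so only their own values are given. Over all entries tested, 26.6% were called higher and 31.1% lower at 24 h than at 3 h in vehicle, and 32.1% higher and 35.7% lower in CBD. RGS4 went from 58.9 ± 3.51 to 156 ± 14.7 FPKM in vehicle and from 44.8 ± 1.17 to 28.8 ± 1.28 FPKM in CBD. CHGA went from 461 ± 14.3 to 686 ± 19.2 FPKM in vehicle and from 474 ± 11.7 to 362 ± 52.6 FPKM in CBD. FABP3 was at 6.16 ± 0.247 and 11.01 ± 0.195 FPKM in vehicle at 3 and 24 h and at 6.25 ± 0.365 and 56.3 ± 6.39 FPKM in CBD. Sterol enzymes parted in the other direction, with 13 of 20 called lower over time in vehicle and 18 called higher over time in CBD.

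**Figure D4:**
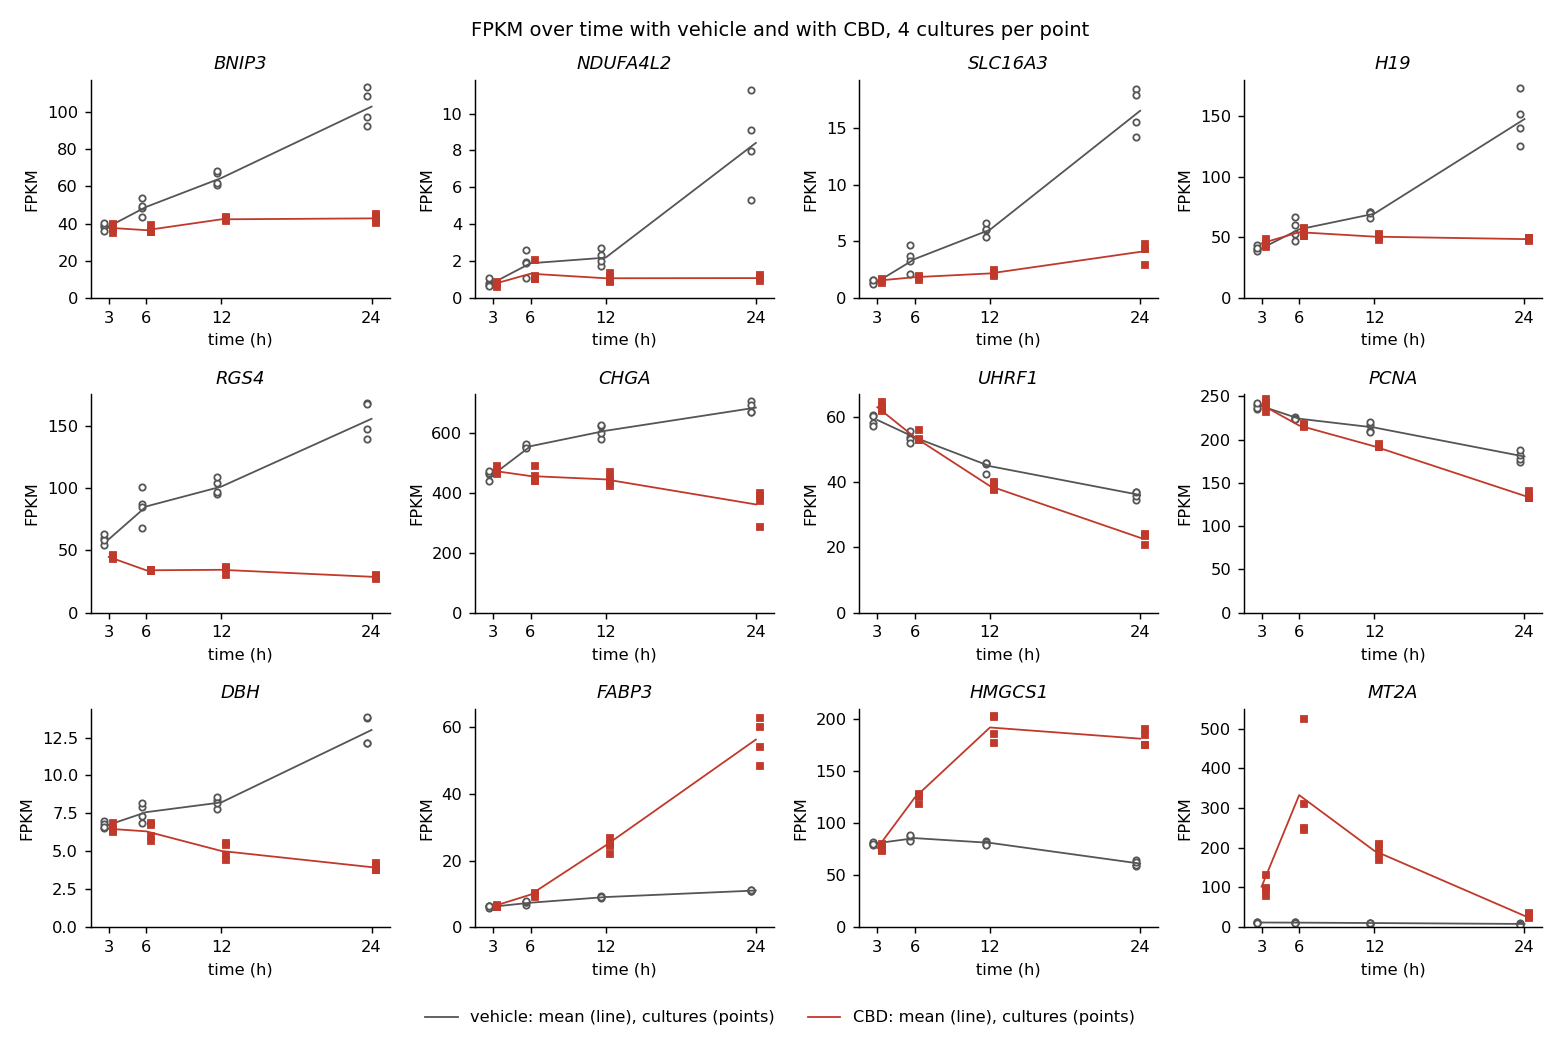
FPKM (vertical axes, from 0) against time in hours (horizontal axes) for 12 genes, with vehicle in grey and CBD in red, points for single cultures and lines through the means of 4. BNIP3, NDUFA4L2, SLC16A3, H19, RGS4, CHGA and DBH climbed in vehicle, UHRF1 and PCNA fell in both groups and lower with CBD, FABP3 climbed with CBD, HMGCS1 was near its 12 h level at 24 h, and MT2A was highest at 6 h.

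Of 43 DNA replication genes tested, 37 were called lower and 2 higher, with a median of -0.24. UHRF1, which carries DNA methylation through replication, had 34.5, 36.9, 35.7 and 36.9 FPKM in vehicle and 23.3, 20.7, 24.0 and 23.6 FPKM in CBD. PCNA, the sliding clamp of the polymerases, was at 174, 178, 182 and 188 FPKM in vehicle and 132, 135, 133 and 140 FPKM in CBD, a log2 change of -0.41 ± 0.02. FEN1, the flap nuclease of lagging strands, changed by -0.49, the nucleotide reductase subunit RRM2 by -0.46 and the helicase subunits MCM2 to MCM7 by between -0.40 and -0.18. The licensing factor CDT1 and the polymerase subunit POLD2 were called higher, at 0.24 and 0.18, and CDT1 was not called without CBD culture 3 or without vehicle culture 4. In vehicle 36 of the 43 were called lower at 24 h than at 3 h, and in CBD 40 were.

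Of 45 mitotic genes 16 were called lower and 1 higher, with a median of -0.08, and without CBD culture 1 the count lower was 9. BIRC5, the inhibitor survivin, changed by -0.28 and the cyclin CCNB1 by -0.16. MKI67, the proliferation marker, was at -0.22 ± 0.07, on the threshold and just not called, and was called in 9 of the 22 alternatives that kept the threshold. TOP2A was at -0.06 and not called. CDC20, the activator of the anaphase-promoting complex, was the member called higher, at 0.12, a call lost without CBD culture 2 and with median-ratio scaling over all entries. Among G1 regulators and p53 targets 12 of 21 were lower and 4 higher. CCND1, the G1 cyclin D1, had 179, 185, 182 and 180 FPKM in vehicle and 133, 126, 133 and 133 FPKM in CBD. CDKN1A, the CDK inhibitor p21, was 0.27 higher, at 1.63 ± 0.0886 FPKM in vehicle and 2.17 ± 0.124 FPKM in CBD, and the p53 target CCNG1 was 0.33 higher, whereas MDM2 was -0.13 and SESN1 -0.23.

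In the BCL2 family 4 of 13 were higher and 3 lower. BBC3, the BH3-only killer PUMA, had 1.43, 1.04, 1.28 and 1.12 FPKM in vehicle and 2.96, 1.88, 3.08 and 2.36 FPKM in CBD. MCL1, a pro-survival member, changed by -0.23. Lysosomal genes were near the background, with 11 of 41 higher and 9 lower. The proteases CTSF and CTSL changed by 0.43 and 0.26. Autophagy genes were near the background too, with 7 of 30 higher (23.3%) and 5 lower (16.7%). The largest changes among them were those of the cargo receptor SQSTM1 at 0.56 and GABARAPL1 at 0.51. MAP1LC3B, which encodes LC3B, was at 0.03 and not called.

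Protein-folding genes did not move as a block. In the endoplasmic reticulum list 7 of 24 were higher and 11 lower. The chaperone BiP, HSPA5, had 48.0, 51.0, 50.3 and 51.9 FPKM in vehicle and 37.4, 36.1, 38.7 and 37.04 FPKM in CBD, a log2 change of -0.42 ± 0.05, and the lectin chaperone CALR changed by -0.33. HERPUD1, which serves degradation at the same membrane, was 0.54 higher, and the sensor ERN1 0.37 higher. The factor XBP1 was 0.32 higher. Of 20 cytosolic chaperones 7 were lower and 2 higher. DNAJA1 and DNAJB1, cochaperones of HSP70, changed by -0.43 and -0.28. HSPA1B, which has a near-identical copy with which it can share reads, changed by -0.31. Of 39 proteasome genes 14 were lower and none higher, with values between -0.25 and 0.05, and 22 were lower when samples were scaled by median ratios over all entries.

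Cytosolic ribosomal proteins were called higher in 28 of 83 and lower in 1, with a median of 0.10. RPL12 had 1491, 1424, 1493 and 1491 FPKM in vehicle and 1726, 1760, 1809 and 1783 FPKM in CBD. RPL22L1, a low-abundance copy of RPL22, had the largest change, 0.64 ± 0.07, and RPL26L1 was the member called lower, at -0.23. These small changes depended on the scaling, and with quantile normalization 13 were called higher and 3 lower, at a median of 0.03. Without vehicle culture 2, 16 were called higher. Ribosomal protein genes have many processed copies that can share reads. In ribosome biogenesis 11 of 31 were higher and 2 lower, with RRP12 at 0.34 and the ribosomal RNA transcription factor UBTF at -0.38. Of 77 mitochondrial ribosomal proteins 22 were lower and 7 higher. The lower share was 28.6%, against 21.3% of all entries, a background not matched for level. The count higher was 4 without CBD culture 2, without CBD culture 3 or without vehicle culture 1. Of 37 complex I subunits 9 were lower (24.3%, near the background of 21.3%) and none higher. Of 24 subunits of complexes II to IV 3 were lower (12.5%) and 4 higher, and of 16 ATP synthase subunits 2 were lower (12.5%) and none higher. NDUFA4L2, described above, was not in the complex I list. Of 360 zinc finger genes named ZNF with a number, 88 were lower and 42 higher, a lower share of 24.4% that is near the background of 21.3%.

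Among adrenergic identity factors 12 of 22 were called lower and 3 higher. The exceptions were MYCN, RET and KLF7, at 0.54, 1.20 and 0.22. LMO3, a transcriptional cofactor, was at 20.7 to 22.7 FPKM in vehicle and 12.6 to 13.0 FPKM in CBD. The receptor kinase ALK changed by -0.39, ISL1 by -0.38 and GATA2 by -0.28. HAND2, among the most abundant of the factors at 454 to 478 FPKM in vehicle and 464 to 495 FPKM in CBD, was at 0.04 ± 0.02 and not called.

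Genes of catecholamine synthesis and granules were evenly split, with 7 of 20 higher and 7 lower. TH, the first enzyme of the pathway, was at 182 to 216 FPKM in vehicle and 180 to 195 FPKM in CBD, and the groups overlapped. DDC, the second, changed by 0.14, and DBH, the third, fell as given above. The granule proteins CHGA, CHGB and SCG3 were at -0.93, -0.46 and -0.29, whereas the peptide precursor VGF was at 0.63 and the vesicular monoamine transporter SLC18A2 at 0.35. Of 30 neurite and cytoskeleton genes 17 were lower and 4 higher. NEFH, the heavy neurofilament, changed by -0.44, the microtubule regulators DPYSL4, STMN3 and STMN1 by -0.43, -0.40 and -0.37, and the growth cone protein GAP43 by -0.33. TUBB3 and NEFM, common neuronal markers, were at 0.07 and 0.04 and not called.

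Feedback genes of the ERK pathway were higher in 10 of 14 with none lower, at a median of 0.19. ETV4, a transcription factor downstream of ERK, had 13.8, 14.8, 14.1 and 14.8 FPKM in vehicle and 30.6, 33.1, 33.0 and 30.0 FPKM in CBD. Its relative ETV5 changed by 0.97 ± 0.04. SPRY4, an inhibitor of receptor tyrosine kinase signalling, changed by 1.00 ± 0.04 and DUSP6, the phosphatase of ERK, by 0.70 ± 0.04. SPRY2 was 0.16 higher. Of the immediate-early factors 6 of 13 were higher and 2 lower, and 10 more of the list did not reach the filter, among them FOS. EGR1 was at 2.22 to 2.45 FPKM in vehicle and 4.65 to 5.66 FPKM in CBD. JUN was at -0.09 ± 0.06 and not called.

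The 24 h effect was set against that at 12 h, which rests on other cultures. Of the 2432 protein-coding genes called higher at 24 h, the difference was positive for 89.9% at 12 h, for 72.8% at 6 h and for 62.6% at 3 h. Of the 2560 called lower, it was negative for 93.6% at 12 h, for 75.9% at 6 h and for 53.6% at 3 h. The median change of the genes higher at 24 h was 0.10 at 12 h and 0.02 at 3 h, and that of the genes lower at 24 h was -0.10 and -0.005. The difference of the effects between the times was tested in the same fit and called for 1028 entries, 8.15% of those tested. Among protein-coding genes 966 were called, and 900 of these were also called at 24 h. Both calls use the same 24 h samples, so this overlap is a description.

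The gains between 12 and 24 h were largest in FABP3, AKNA, DDIT3, ASS1 and SH2D3C. FABP3 gained 0.91, from 1.34 at 12 h, and DDIT3 gained 0.85, from 0.44. AKNA, an AT-hook protein, was at 1.83 to 1.90 FPKM in vehicle and 6.35, 4.24, 6.17 and 3.65 FPKM in CBD, with CBD cultures 1 and 3 again above 2 and 4. SH2D3C, an adaptor protein, turned from -0.46 at 12 h to 0.21 at 24 h. The losses included those of the metallothioneins. MT1G changed by 6.43 at 12 h, and the difference between its 24 h and its 12 h effect was -3.25. The same difference was -2.66 for MT1X, -2.50 for MT1E and -2.39 for MT2A. MT1G and MT1E passed the filter only through CBD samples in which they were high, so their differences are not read as a result. SLC30A1 went from 0.93 at 12 h to 0.27 at 24 h, and SLC39A10 from -0.72 to 0.03. H3F3A was also among the largest differences, but its CBD cultures had 0.0181, 0.0052, 0.0133 and 6.04 FPKM against 4.04 to 9.22 FPKM in vehicle, so the groups overlapped and a single CBD culture departed from the other 3. H3F3A was not called with the 24 h samples alone (limma, adjusted p = 0.029), nor without any 1 of those 3 cultures or of vehicle cultures 2 and 4.

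By list, the share of members whose effect changed between 12 and 24 h differed. Hypoxia markers had 10 of 24 called with a more negative effect at 24 h, glycolysis 9 of 19 and DNA replication 19 of 43. Of all entries tested, 8.15% were called in either direction, so the background for 1 direction is smaller. Sterol synthesis had 4 of 20 called with a more positive effect and mitosis 3 of 45, and the median change of the sterol list was 0.63 at 12 h. For hypoxia markers the medians were -0.24 at 12 h and -0.03 at 3 h, for glycolysis -0.12 and 0.04, and for DNA replication -0.11 and 0.06.

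**Figure D5:**
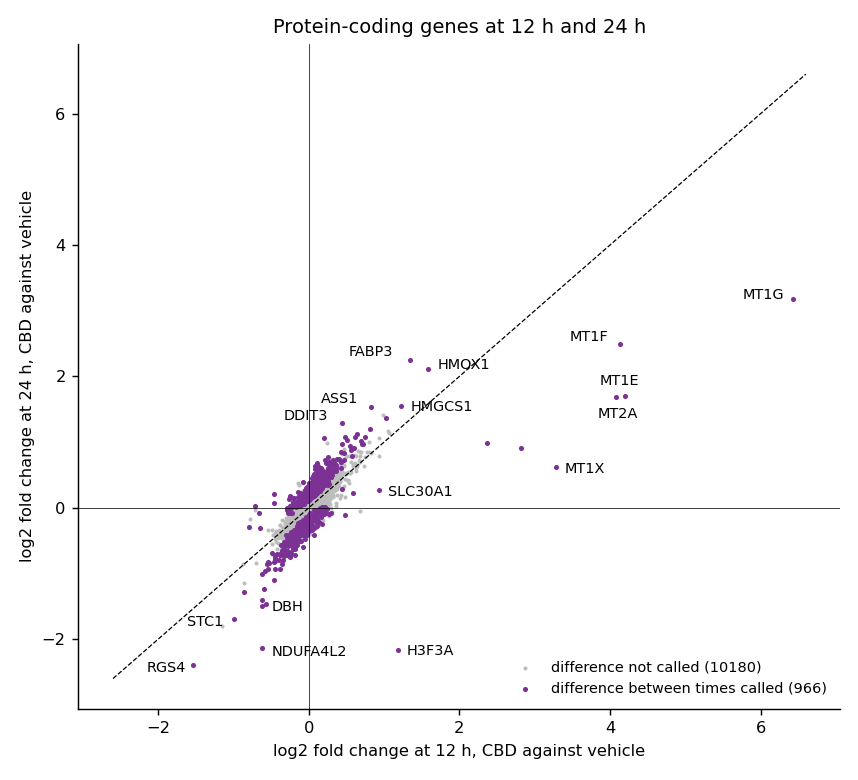
Log2 fold change of CBD against vehicle at 24 h (vertical axis) and at 12 h (horizontal axis) for protein-coding genes, with the line of equal effects dashed. The 966 genes with a called difference between the times are purple, and the metallothioneins lie to the right of the line with MT1G at 6.43 and 3.18. MT1G, MT1F and MT1E passed the filter only through CBD samples in which they were high.

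Entries that are not protein-coding or have no type numbered 1475, 187 of them without a type, with 191 called higher and 131 lower. H19 (chr11:2016396-2025782), a maternally expressed long noncoding RNA next to IGF2, had 174, 140, 152 and 126 FPKM in vehicle and 48.1, 49.8, 47.0 and 49.7 FPKM in CBD. Its log2 change was -1.57 ± 0.08 (adjusted p = 1.26e-14, limma). MEG8 and MEG9, long noncoding RNAs of the imprinted locus on chromosome 14, changed by -0.71 and -0.80. OLMALINC was at 39.8 to 42.0 FPKM in vehicle and 76.4 to 90.3 FPKM in CBD, and FAM222A-AS1 and USP2-AS1 changed by 1.10 and 0.84. Short RNA genes held more than 50% of all FPKM, because fragments are divided by a very short length, and were the noisier entries. MIR4761 was listed at 0 in all vehicle cultures and at 17.4 to 20.3 FPKM in CBD, and MIR941-1 at 28.2 to 67.4 FPKM in vehicle and at 0 in all CBD cultures, so no fold is given.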

How the data were processed

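Poly(A) RNA of SK-N-BE(2) cultures was sequenced in 32 libraries as single reads, 4 cultures per treatment and time. After trimming with Trimmomatic 0.36, the authors placed the reads on hg19 by Tophat, which allowed up to 2 locations a read, and Cufflinks gave the deposited FPKM values for each sample (reads scaled by exon length and by mapped reads). The labels and the study's methods name different library kits. A second deposited table holds the authors' own Cuffdiff comparisons (log2 fold changes and q-values) and was not used.

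Values were taken as log2(FPKM + 1) without further scaling. Entries with a mean of at least 1 FPKM over the 32 samples were fitted with limma 3.58.1 (R 4.3.3, eBayes with an intensity trend, 24 residual degrees of freedom) with 1 mean per treatment and time. Contrasts were CBD minus vehicle at 24 h and that effect minus the one at 12 h. A call is a Benjamini-Hochberg adjusted p under 0.01 over all entries tested, and errors of log2 changes are SE. Nothing says how separately the cultures were grown, so p-values measure the spread between these samples. FPKM does not give depth, and relative depth was estimated from the smallest nonzero values. On simulated data, with 200 of 12621 entries changed by 0.2 or 0.5 (log2), 57% and 94.5% were recovered, with 2 and 4 false calls. The simulation did not vary depth and changed far fewer entries than the 42.1% called in the data.

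The comparison, the gene lists and the tests were chosen with earlier results of these data known, so list counts are descriptions. Genes were named by rule: among protein-coding genes called without overlap of the groups, the 15 largest rises and falls in log2 and the 5 in FPKM; the 5 largest differences between the times each way; key members and up to 4 leading members of each list; and the 5 largest noncoding changes each way. Some genes that the rule names are not reported here. Further members given as examples or exceptions, the motif searches, the lists of imprinted, circadian and splicing genes, and both scalings by median ratios over all entries and by the protein-coding sum were chosen after values were seen. Other alternatives changed the value added, the filter, the scaling, the moderation, the threshold, the samples and the entries tested, used relative depth as a covariate or the replicate number as a block, and left out each culture in turn. Gene types and positions came from GENCODE on GRCh37 where a name matched, and promoter sequences from RefSeq on GRCh38.p14.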

Additional observations from a re-analysis of the deposited data

Results flagged for a closer look

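The effect of CBD at 24 h differed from that at 12 h, by a test of the difference itself in the same fit (limma, adjusted p under 0.01), for 1028 entries and for 93 of the called genes named here. Differences are the log2 effect at 24 h minus that at 12 h. Most genes were named for their 24 h effect or for this difference, and the same 24 h values enter the test. That choice favours effects farther from 0 at 24 h, so the counts of named genes by direction are descriptions. Of the genes higher at 24 h, 34 had a more positive effect than at 12 h. The effect differed most in FABP3 by 0.91, AKNA by 0.86, DDIT3 by 0.85, ASS1 by 0.71, SH2D3C by 0.66, FAM222A-AS1 by 0.62, BBC3 by 0.56, NR1D1 by 0.54 and HMOX1 by 0.53. Next came RPL22L1 by 0.53, RAB3IL1 by 0.49, GABARAPL1 by 0.44, OLMALINC by 0.41, HERPUD1 by 0.40, RET by 0.39, CEBPB by 0.39, USP2-AS1 by 0.36 and ERN1 by 0.35. Smaller differences were those of ETV4 by 0.34, ACSS2 by 0.34, NQO1 by 0.32, HMGCS1 by 0.32, FTH1 by 0.30, SARS by 0.29, BHLHE41 by 0.29, ETV5 by 0.26 and FDFT1 by 0.24. The smallest were those of SREBF2 by 0.23, LIPA by 0.21, CDC20 by 0.20, SQSTM1 by 0.20, CRY1 by 0.19, RPL12 by 0.15 and KLF7 by 0.14. A smaller rise at 24 h than at 12 h was listed for 5 metallothioneins and the zinc exporter SLC30A1. MT1G differed by -3.25, MT1X by -2.66, MT1E by -2.50, MT2A by -2.39, MT1F by -1.65 and SLC30A1 by -0.66. MT1G, MT1E and MT1F passed the filter only through CBD samples in which they were high, so their differences are not read as a result. TFRC, lower at both times, differed by 0.34.

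Of the genes lower at 24 h, 52 had a more negative effect than at 12 h. The difference was widest in H3F3A by -3.34, NDUFA4L2 by -1.52, H19 by -1.12, IGF2 by -0.90, DBH by -0.88, RGS4 by -0.86, ABCA12 by -0.77, MEG9 by -0.73 and STC1 by -0.70. It was of middle size in BNIP3 by -0.65, SLITRK6 by -0.64, FAM162A by -0.56, DLK1 by -0.54, MEG3 by -0.52, CHGA by -0.48, TPI1 by -0.45, PGAM1 by -0.44 and UHRF1 by -0.43. Then followed TM4SF4 by -0.42, MEG8 by -0.41, SLC2A1 by -0.40, HK2 by -0.39, LOXL2 by -0.39, PGK1 by -0.38, PFKFB4 by -0.38, SRSF6 by -0.37 and NEUROG2 by -0.37. Lesser differences were those of EGLN3 by -0.36, PDK1 by -0.36, SRSF2 by -0.34, LMO3 by -0.34, FEN1 by -0.33, ADM by -0.31, ENO1 by -0.30, PKM by -0.30 and HSPA1B by -0.28. Under these lay PEG10 by -0.27, PCNA by -0.26, DPYSL4 by -0.26, ISL1 by -0.23, TRA2A by -0.23, SRSF3 by -0.21, CALR by -0.20, ALK by -0.20 and CCND1 by -0.19. The list ended with STMN1 by -0.19, MCL1 by -0.18, DNAJB1 by -0.17, UBTF by -0.17, EGLN1 by -0.16, MCM7 by -0.15 and VLDLR by -0.14.

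In 22 of 358 groups of 4 cultures (6.15%), the farthest culture was set off by a gap that, as a share of the group's range, was above Dixon's 95% critical value. Chance alone marks about 1 in 20 such groups. For vehicle culture 1 it was 78.74 FPKM for BIRC5 (others 83.54 to 84.45), 35.46 FPKM for JUN (others 32.28 to 32.69), 304.7 FPKM for MEG3 (others 281.7 to 283.9), 52.32 FPKM for MSMO1 (others 55.62 to 56.15), 389.2 FPKM for PRDX1 (others 414.6 to 419.7) and 16.84 FPKM for SLC39A10 (others 17.35 to 17.38). For vehicle culture 2 it was 5.27 FPKM for ACSS2 (others 5.62 to 5.65), 219.6 FPKM for GAP43 (others 234.4 to 237.3), 2617 FPKM for GAPDH (others 2686 to 2699), 36.3 FPKM for PMVK (others 34.83 to 35.05) and 1424 FPKM for RPL12 (others 1491 to 1493). For vehicle culture 3 it was 51.21 FPKM for DDC (others 49.59 to 49.67) and 18.18 FPKM for SLITRK6 (others 16.37 to 16.5). For vehicle culture 4 it was 18.54 FPKM for RRP12 (others 17.88 to 17.94). For CBD culture 1 it was 4.952 FPKM for ABCA12 (others 4.832 to 4.844), 164.1 FPKM for FASN (others 179.3 to 182.3) and 3.819 FPKM for MEG9 (others 3.178 to 3.285). For CBD culture 2 it was 126.3 FPKM for CCND1 (others 132.8 to 133.2), 2452 FPKM for MYCN (others 2182 to 2208) and 92.51 FPKM for PGAM1 (others 86.58 to 87.39). For CBD culture 4 it was 6.044 FPKM for H3F3A (others 0.005202 to 0.01814) and 8.592 FPKM for MDM2 (others 8.942 to 9.004).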

How the results depend on the processing

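Across 23 alternatives the number of entries called at 24 h lay between 3988, with a mean FPKM of at least 5, and 6640, with a threshold of 0.05, against 5314. The number with an absolute log2 change of at least 1, 43, became 26 with a mean FPKM of at least 5, 70 with 0.1 added before the logarithm and 21 with 5 added. The number whose effect differed between 24 and 12 h, 1028, became 2056 at the threshold of 0.05. Leaving out 1 culture at a time gave 4772 to 5001 called, 2312 to 2498 higher, 39 to 51 changed by at least 1 and 823 to 949 with a difference between the times. Calls were higher in 40.6% (median ratios over all entries) to 53.6% (no filter) of cases, against 49.4%.

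With the replicate number as a block, a paired analysis called 5298 entries, 2630 of them higher, 42 by at least 1, and 937 for the difference. The residuals of CBD and vehicle cultures with the same number correlated at -0.005, -0.043, -0.029 and -0.076. These values give no sign that the numbers pair the cultures, but they cannot exclude shared handling of small effect.

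Of 179 genes named and tested, 166 were called, 156 of these kept call and direction in every alternative, and 10 lost the call in at least 1 (ARNTL, CDC20, CDT1, H3F3A, MT1E, MT1X, PRDX1, RPL37A, RPS2 and RPS7). RPS2 lost it in 7, among them without CBD culture 2 and without vehicle cultures 3 and 4 (limma, adjusted p = 0.0144, 0.0129 and 0.0119). No called gene changed sign. Among the 13 not called, MKI67, PMVK and TM7SF2 were called in at least 1 alternative, and 4 changed sign. HK1 was at 0.009 under quantile normalization and MAP1LC3B at -0.001 with median ratios over all entries. Without single cultures, DDIT4 ran from -0.239 to 0.016 and NEFM from -0.003 to 0.086. With 5 added, HMOX1 was at 1.12, NDUFA4L2 at -1.12 and SLC7A11 at 0.58. The cause was not tested in these cases, other than that the value added acts most at low FPKM by construction.

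Of 1656 list counts, 103 moved by more than the allowed ratio. Ribosomal proteins called higher, 28, became 13 under quantile normalization, 15 with median ratios over all entries and 16 without vehicle culture 2. Numbered ZNF genes called lower, 88, became 41 with a mean FPKM of at least 5, where fewer were tested. FPKM without counts gives no depth, so what the depth limits was not tested. In data simulated with normal noise of the observed spread, 200 genes were changed by 0.2 or 0.5 on the log2 scale. Of these, 57% and 94.5% were recovered. Depth was not varied, and far fewer genes were changed than the 42.1% called in the data. These shares therefore need not hold for this comparison.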

Other observations

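Some groups that stood out were picked after their values were seen, so their counts are descriptions with no test. Of 19 tested imprinted genes, which are expressed from the maternal or the paternal allele only, 12 were called lower with CBD at 24 h and 1 higher, with a median log2 change of -0.26. Beside H19 and IGF2 on chromosome 11, MEG3 and DLK1 on chromosome 14 were at -0.60 ± 0.06 and -0.72 ± 0.04 (SE) and the retrotransposon-derived gene PEG10 at -0.55 ± 0.03. PEG3 was the member called higher, at 0.20. Between 3 and 24 h, 12 of the 19 were called higher in vehicle and 6 in CBD, against 26.6% and 32.1% of all tested genes.

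Of 16 tested circadian clock genes, 12 were called higher and 1 lower, with a median of 0.32. The repressors NR1D1 and PER3 were at 0.98 and 0.66, BHLHE41 at 0.64, PER1 at 0.60 and CRY1 at 0.49. ARNTL, which encodes the activator BMAL1, was the member called lower, at -0.21, a call lost with the 24 h samples alone and under quantile normalization (limma, adjusted p = 0.0256 and 0.0412). Between 3 and 24 h, 9 of the 16 were called higher in vehicle and 14 in CBD. Of 14 serine and arginine rich splicing factors, 11 were called lower and none higher, with a median of -0.35. TRA2A was at -0.57, SRSF6 at -0.52, SRSF3 at -0.47 and SRSF2 at -0.42.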
